A study of Mus musculus with 12 samples.

Results

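RNA of mouse cortical astrocytes kept for 5 days as spheres on agarose (A-iSCs, 3 samples) was compared with RNA of the same kind of cells growing attached in medium with serum (ASTs, 3 samples at day 0). The comparison covered the 14087 genes, of 55862 in the deposited table, whose mean was at least 1 FPKM in the ASTs or in the A-iSCs. FPKM is the number of sequenced fragments on a gene per kilobase of its length and per unit of library size. The cells came from the cortex of C57BL/6 pups at postnatal day 1 to 2, freed of meninges. They were grown as a monolayer in DMEM with 10% fetal bovine serum and passaged by trypsin after loosely attached cells had been removed. A-iSCs were made from such ASTs on dishes coated with 0.5% agarose, to which cells attach poorly, in a medium that the study names only as astrocyte expansion medium. According to the study, no outside gene, RNA or protein was used. A monolayer kept for the same 5 days was not analysed here, so the format, the time and any difference in medium cannot be told apart. The other 6 of the 12 samples of the series, precursor cells taken from brain at postnatal day 56 and day 0, were left out of the test. The study states in general that 3 independent experiments were done, with at least 3 samples per test. It does not say whether the 3 RNA-seq samples of a group came from separate cultures. The p-values therefore measure the spread between these samples, which may be technical.

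Astrocytes on plastic in serum spread, pull on their substrate through actin stress fibres and focal adhesions, lay down matrix and divide. Actin tension and serum act on the transcription factor SRF, which binds the CArG box, and on YAP, which works through the TEAD factors. In the brain an astrocyte instead takes up glutamate, buffers potassium and secretes apolipoproteins, and after injury it turns reactive and makes more of the intermediate filament GFAP. Cultures of newborn cortex also contain other glia, among them microglia and precursors of oligodendrocytes.

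Each AST sample held between 17077780 and 21543424 fragments that fell on genes, and each A-iSC sample between 18288177 and 23769070. A gene of 1 kilobase with 3 fragments had 0.112 to 0.179 FPKM in these 6 samples, a floor that covers counting error only. AST replicate 2 and A-iSC replicate 3 stood farthest from the other samples of their group, with median absolute differences of 0.195 and 0.297 on the log2 scale, against 0.114 to 0.186 for the other 4 samples. Transcripts of the mitochondrial genome took 2.94 to 4.7% of the fragments in the ASTs and 3.05 to 7.03% in the A-iSCs. Of 13 messenger RNAs of the mitochondrial genome, 1 was called higher and 0 lower by limma. The number called higher was 0 without AST replicate 1 or 3, without A-iSC replicate 1 or 2 and by limma-voom on recovered fragments, and 3 without A-iSC replicate 3. Genes of at least 1 FPKM numbered 12468 to 12518 in an AST sample and 12978 to 13273 in an A-iSC sample, so the ranges did not overlap (exact two-sided permutation test, p = 0.1, the smallest that 3 samples against 3 can give).

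At an adjusted p under 0.05 by limma, 54.8% of the genes tested were called, 25.2% as higher and 29.6% as lower in A-iSCs. Every share of a gene list given here is read against these shares. A log2 fold change beyond 1 as well was reached by 10.4% of the genes in the higher and 11.0% in the lower direction. The groups did not overlap at 62.7% of the genes. The median log2 fold change of all genes tested was -0.06, and the middle part of the genes, from the 25th to the 75th percentile, lay between -0.54 and 0.46. Scaling by library size alone moved the median to 0.13, a shift of 0.19, and turned the balance to 4563 higher and 2989 lower genes. A log2 fold change given here is to be read against this shift. Of the genes tested, 11622 had a mean of at least 1 FPKM in both groups. Among these 11622 genes 2309 were called higher and 3470 lower in the same fit. A further 880 reached it in the ASTs only, of which 695 were called lower, and 1585 in the A-iSCs only, of which 1241 were called higher. For genes that entered through a single group the filter fixed the direction, so 0 of the 880 were called higher and 0 of the 1585 lower.

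**Figure D1:**
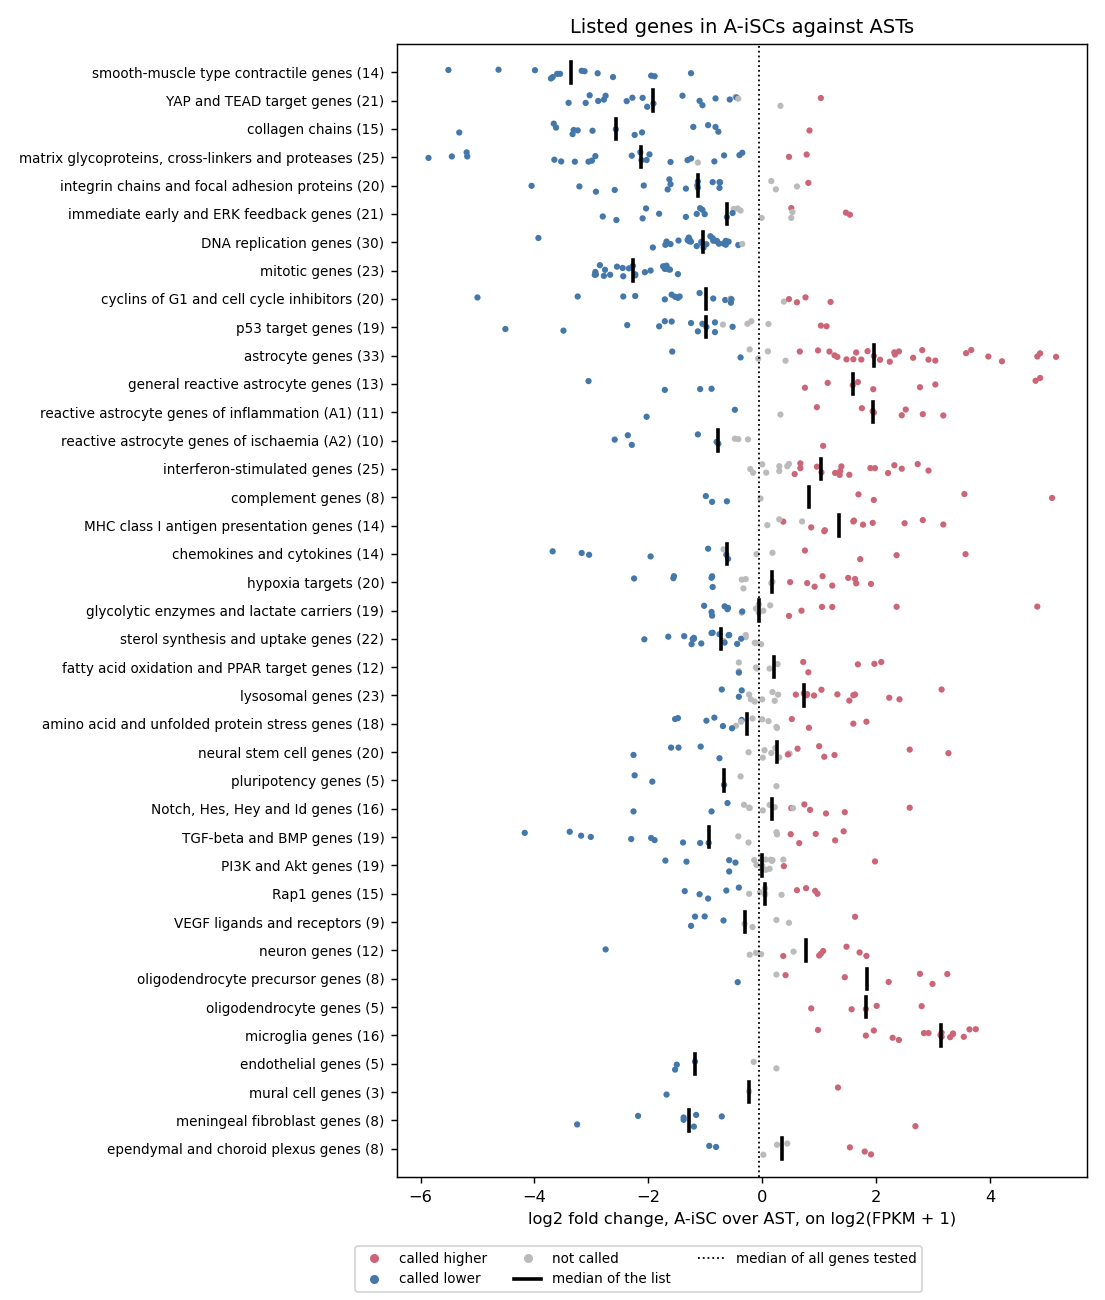
Log2 fold change of A-iSCs over ASTs, on log2(FPKM + 1), for the tested genes of 39 lists, with the number tested in brackets. Each point is a gene, coloured by its call at an adjusted p under 0.05, the bar is the median of the list, and the dotted line is the median of all genes tested, -0.06. The contractile list has the lowest median, -3.36, and the microglia list the highest, 3.14.

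The largest losses in level were led by a secreted protein. Igfbp2, which binds insulin-like growth factors (ENSMUSG00000039323, chr1:72824503-72852474, plus strand of GRCm38), was the most abundant nuclear protein-coding messenger RNA of the ASTs. It was measured at 4801, 6283 and 4591 FPKM in the ASTs and 236, 195 and 122 FPKM in the A-iSCs. The groups were far apart, and the fall was 28.3-fold (log2 fold change -4.85, standard error 0.28, adjusted p = 1.51e-05 by limma). The calcium-binding S100a11 fell from 2500.0 to 365 FPKM and the galactose-binding lectin Lgals1 from 2430.3 to 399 FPKM. Sparc, a matrix protein that binds calcium and collagen, fell from 1597 to 329 FPKM, and the cytoplasmic actin Actb from 1716 to 672 FPKM (log2 fold change -1.41, adjusted p = 0.0177 by limma). Actb shares sequence with Actg1 and with pseudogenes, so how its fragments were divided is uncertain, and its call was lost without AST replicate 2. Vim, the intermediate filament vimentin, fell from 2186 to 1038 FPKM (log2 fold change -1.09), and Ckb, the brain creatine kinase, from 1787 to 834 FPKM (-1.12). With no filter on low values the calls of Vim, Ckb and Actb were lost. The actin-binding peptide Tmsb4x, also among the 10 largest losses of FPKM, was at 2662 FPKM in the ASTs and 1761 FPKM in the A-iSCs and was not called (adjusted p = 0.1 by limma).

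The gains in level were led by a single messenger RNA. Apoe, the main apolipoprotein of the brain (ENSMUSG00000002985, chr7:19696109-19699188, minus strand of GRCm38), was measured at 509.9, 711 and 547 FPKM in the ASTs and 11922, 11939 and 8835 FPKM in the A-iSCs. It rose 18.5-fold (log2 fold change 4.21, standard error 0.25, adjusted p = 1.57e-05 by limma), and its share of the summed FPKM of genes outside the mitochondrial genome went from 0.17 to 0.205% in the ASTs to 3.47 to 4.43% in the A-iSCs. Lyz2, the lysozyme of macrophages, rose from 321 to 2957 FPKM, the lysosomal protease Ctsd from 642 to 1967 FPKM and Ctss, a protease of the same compartment that is typical of microglia, from 75.2 to 978 FPKM. Spp1, the secreted phosphoprotein osteopontin, rose from 270.2 to 1523 FPKM. The protease inhibitor Cst3 rose from 814 to 2010.1 FPKM, the class I light chain B2m from 964 to 2078 FPKM and the metal-binding Mt1 from 305 to 1258 FPKM. The call of B2m was lost with no filter on low values. C1qa and Gfap completed the 10 largest gains. Of these 10 genes Lyz2, Ctss and C1qa are genes of microglia and macrophages, and Apoe, Ctsd, Cst3 and B2m are made by microglia as well as by astrocytes.

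The genes of the smooth-muscle type contractile apparatus fell as a group. Of 17 listed genes 14 were tested, all 14 were called lower, and in each the groups did not overlap. The median log2 fold change was -3.36, against -0.06 over all genes tested, and the summed level of the list fell from 3352 to 4006 FPKM in the ASTs to 189 to 238 FPKM in the A-iSCs. Myh11, Mylk and Des did not reach the minimum level in either group. Markers of meningeal fibroblasts moved with this list: of 15 such genes 8 were tested, 7 were called lower and 1 higher, and their summed level was 62.8 to 72.0 FPKM in the ASTs and 27.8 to 30.5 FPKM in the A-iSCs. Dcn and Lum, abundant proteoglycans of such fibroblasts, were under 1 FPKM on average in both groups, and Slc22a6 and Igf2 were listed at 0 in all ASTs. Pdgfrb, of mural cells and fibroblasts, fell as well. The part of these cells in the falls of contractile, matrix and adhesion genes was not tested. Acta2, the smooth muscle actin of stress fibres (ENSMUSG00000035783, chr19:34241090-34255590, minus strand of GRCm38), was measured at 1742, 2113 and 1689.8 FPKM in the ASTs and 58.6, 40.9 and 25.5 FPKM in the A-iSCs. No A-iSC sample came near the lowest AST sample, and the fall was 44.4-fold (log2 fold change -5.51, standard error 0.29, adjusted p = 1.05e-05 by limma). Myl9, the regulatory light chain of smooth muscle myosin, was measured at 429.7, 601 and 423 FPKM in the ASTs and 50.9, 45.9 and 27.0 FPKM in the A-iSCs (log2 fold change -3.55, standard error 0.27, adjusted p = 4.17e-05 by limma). Cnn2, a calponin that binds actin, was measured at 342, 369 and 324 FPKM in the ASTs and 26.1, 26.9 and 23.3 FPKM in the A-iSCs (log2 fold change -3.71, standard error 0.13, adjusted p = 3.54e-06 by limma). Among the tropomyosins Tpm2 fell from 111 to 3.60 FPKM and Tpm1 from 298 to 23.8 FPKM. Cnn1 fell from 123 to 6.79 FPKM, Cald1, the actin-binding caldesmon, from 127 to 9.12 FPKM and Tagln, or transgelin, from 13.3 to 0.541 FPKM. The cross-linker Flna, which is not particular to muscle, fell less, from 178 to 46.9 FPKM, as did the adhesion adaptor Vcl, from 19.7 to 4.08 FPKM. The call of Vcl was lost without AST replicate 1 or 3 and without A-iSC replicate 1 or 2, at log2 fold changes between -2.52 and -1.63 over all alternatives. Srf itself had the smallest change of the list. It was measured at 24.3, 18.3 and 24.6 FPKM in the ASTs and 8.59, 7.44 and 10.6 FPKM in the A-iSCs, so it fell 2.53-fold (log2 fold change -1.25, standard error 0.17, adjusted p = 0.000691 by limma).

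The promoter, a window that runs from upstream of the start to a short way past it, was examined for 14 of the contractile genes, with 15 promoters in RefSeq. A CArG box, the sequence bound by SRF, was found on either strand in 4 of these 15 promoters, those of Cnn2, Myl9, Srf and Vcl, and in 1.63% of all 32851 promoters of 300 bases. The 4 are shown because they hold the box, with the CArG boxes in capitals, from the 5′ end, on the strand of the gene and ending before the annotated start (GRCm38.p6). The positions are chr17:46556175-46556284, minus strand for Srf, chr2:156775263-156775352, plus strand for Myl9, chr14:20929148-20929220, plus strand for Vcl and chr10:79988504-79988593, plus strand for Cnn2.
Srf: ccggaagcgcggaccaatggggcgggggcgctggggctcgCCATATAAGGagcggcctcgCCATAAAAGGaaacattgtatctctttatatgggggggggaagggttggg
Myl9: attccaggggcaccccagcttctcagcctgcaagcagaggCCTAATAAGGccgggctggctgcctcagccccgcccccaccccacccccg
Vcl: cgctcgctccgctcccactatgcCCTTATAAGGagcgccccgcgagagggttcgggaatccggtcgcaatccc
Cnn2: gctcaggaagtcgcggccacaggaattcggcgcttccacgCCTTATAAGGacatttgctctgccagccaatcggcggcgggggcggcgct
Srf held a pair of boxes that began 82 and 62 bases before its start, and the box began 56 bases before the start in Cnn2, 161 in Myl9 and 227 in Vcl. The log2 fold changes of the genes with a box were -3.71 for Cnn2, -3.55 for Myl9, -1.95 for Vcl and -1.25 for Srf, against the list median of -3.36. A match of letters is a description and shows no binding.

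**Figure D2:**
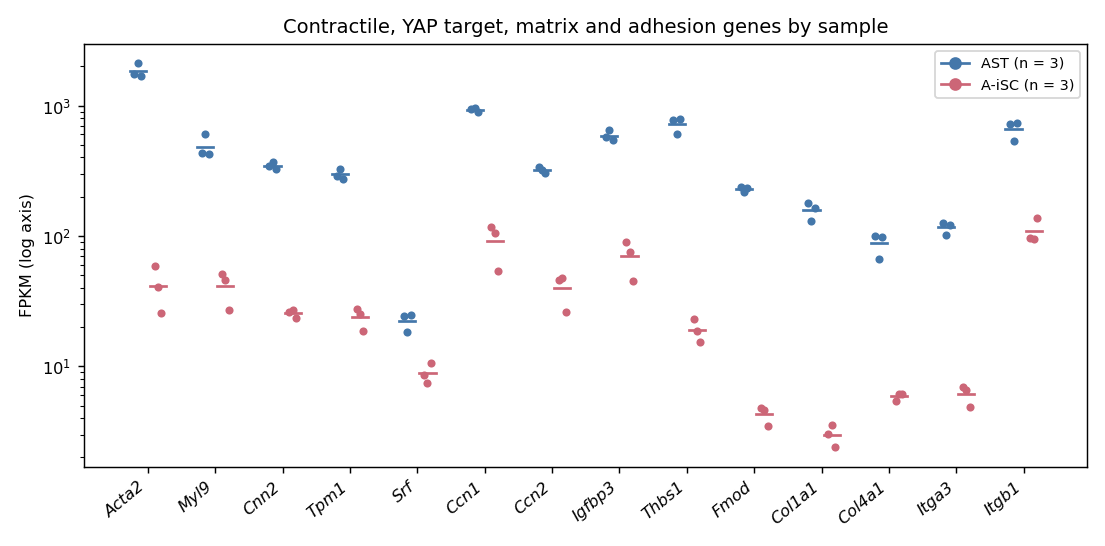
FPKM on a log axis of 14 genes of contraction, YAP signalling, matrix and adhesion, 1 point per sample and a bar at the mean of the 3 samples of a group. At each gene the 3 A-iSC samples lie below the 3 AST samples.

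Targets of YAP and TEAD moved the same way. Of 22 listed genes 21 were tested, 17 were called lower, 1 higher, and the median log2 fold change was -1.91. The matrix-bound signalling protein Ccn1 (also called Cyr61) was measured at 935, 966 and 895 FPKM in the ASTs and 117, 106 and 53.5 FPKM in the A-iSCs (log2 fold change -3.40, standard error 0.29, adjusted p = 7.95e-05 by limma). Its relative Ccn2 (also called Ctgf) was measured at 336, 318 and 305 FPKM in the ASTs and 45.7, 47.2 and 26.1 FPKM in the A-iSCs (log2 fold change -3.03, standard error 0.23, adjusted p = 4.67e-05 by limma). Igfbp3, a binding protein of insulin-like growth factors, fell from 587 to 70.2 FPKM, and Crim1, a membrane protein that binds BMPs, from 62.5 to 7.71 FPKM. Gadd45a, which is also a target of p53, was the exception and rose from 16.3 to 34.4 FPKM (log2 fold change 1.03). The letters GGAATG, which TEAD factors bind, were present on either strand in 7 of 17 promoters of 15 of these genes and in 14.7% of all promoters. Ankrd1, a nuclear protein of stretched muscle and a widely used readout of YAP, is shown for its position in the list, although it was chosen after its values were seen (chr19:36119922-36120094, minus strand, with GGAATG in capitals).
Ankrd1: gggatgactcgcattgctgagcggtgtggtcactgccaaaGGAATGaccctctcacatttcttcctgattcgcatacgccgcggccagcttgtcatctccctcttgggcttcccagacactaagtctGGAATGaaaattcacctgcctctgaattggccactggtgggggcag
It was measured at 3.84, 4.84 and 3.43 FPKM in the ASTs and 0.0688, 0 and 0.0129 FPKM in the A-iSCs, where the A-iSC values rest on 4, 0 and 1 fragments.

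Most messenger RNAs of the matrix fell, beside the meningeal fibroblast markers given above. Of 16 collagen chains 15 were tested, 14 were called lower and 1 higher, with a median log2 fold change of -2.57 and no overlap between the groups at any of the 15. Col1a1, the main chain of fibrillar collagen, was measured at 178, 131 and 164 FPKM in the ASTs and 3.00, 3.54 and 2.39 FPKM in the A-iSCs. The 6 values left a wide gap, and the fall was 52.9-fold (log2 fold change -5.32, standard error 0.16, adjusted p = 3.54e-06 by limma). The basement membrane chain Col4a1 was measured at 99.2, 66.4 and 97.8 FPKM in the ASTs and 5.40, 6.13 and 6.18 FPKM in the A-iSCs (log2 fold change -3.66, standard error 0.17, adjusted p = 7.56e-06 by limma), and Col5a2 and Col8a1 fell from 147 to 10.9 FPKM and from 40.4 to 3.03 FPKM. Col16a1, a chain that associates with fibrils, rose from 4.87 to 9.60 FPKM (log2 fold change 0.83). Of 28 matrix glycoproteins, cross-linkers and proteases 25 were tested, 22 were called lower and 2 higher, with a median of -2.12. The collagen-binding proteoglycan Fmod was measured at 237, 218 and 232 FPKM in the ASTs and 4.82, 4.59 and 3.49 FPKM in the A-iSCs (log2 fold change -5.45, standard error 0.13, adjusted p = 3.09e-06 by limma). Lox, which cross-links collagen, fell from 95.4 to 0.653 FPKM. Thbs1, a matrix glycoprotein that activates latent TGF-beta, was measured at 773, 604 and 792 FPKM in the ASTs and 22.9, 18.7 and 15.3 FPKM in the A-iSCs (log2 fold change -5.19, standard error 0.19, adjusted p = 4.06e-06 by limma). Timp4 and Fbln1 were the members that rose, from 3.10 to 4.69 FPKM and from 2.64 to 5.31 FPKM, and 1 of these 2 calls was lost without AST replicate 1, without AST replicate 3 and without A-iSC replicate 2. Among genes that were no list members, Tinagl1, a basement membrane glycoprotein, had a log2 fold change of -5.95, the lowest among protein-coding genes of at least 10 FPKM, and Crabp1, which binds retinoic acid in the cytoplasm, followed at -5.94. With a pseudocount of 0.1 their order turned, at -7.77 for Crabp1 and -7.66 for Tinagl1. Tinagl1 was measured at 80.2, 82.0 and 75.7 FPKM in the ASTs and 0.307, 0.328 and 0.248 FPKM in the A-iSCs.

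Receptors for the matrix and the proteins that tie them to actin fell as well, with more exceptions. Of 22 integrin chains and focal adhesion proteins 20 were tested, 16 were called lower and 1 higher, with a median of -1.14. Itga3, an integrin chain that recognises laminin, was measured at 126, 102 and 121 FPKM in the ASTs and 6.99, 6.64 and 4.85 FPKM in the A-iSCs (log2 fold change -4.05, standard error 0.16, adjusted p = 4.87e-06 by limma). Itgb1, the beta chain shared by most matrix receptors, was measured at 717, 538 and 734 FPKM in the ASTs and 96.0, 94.5 and 138 FPKM in the A-iSCs (log2 fold change -2.59, standard error 0.21, adjusted p = 6.24e-05 by limma). The actin cross-linker Actn1 fell from 179.8 to 22.9 FPKM. Itga2, a collagen receptor chain, was the member that rose, from 0.484 to 1.61 FPKM, and it was not tested where a mean of at least 1 FPKM was asked of both groups. Itgb5, a chain of vitronectin receptors, was at 78.6 FPKM in the ASTs and 93.6 FPKM in the A-iSCs and was called only with scaling by library size alone and with all 4 groups in the fit.

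Immediate early genes and the feedback inhibitors of ERK, which growth factors in serum induce, were divided. Of 23 listed genes 21 were tested, 12 were called lower and 3 higher, with a median of -0.62, and 5 were called higher without A-iSC replicate 3. The fallen genes included the ERK pathway inhibitors Spry1, from 31.4 to 3.72 FPKM, and Spry4, from 13.5 to 2.37 FPKM, and the phosphatases Dusp5, from 44.7 to 6.94 FPKM, and Dusp1, from 94.9 to 23.3 FPKM. The components of AP-1 Fos and Junb rose. Fos was measured at 38.1, 42.7 and 39.7 FPKM in the ASTs and 153, 113 and 82.8 FPKM in the A-iSCs (log2 fold change 1.47, adjusted p = 0.00114 by limma), and Junb at 29.3, 42.3 and 31.5 FPKM in the ASTs and 134, 107 and 70.9 FPKM in the A-iSCs (log2 fold change 1.54, adjusted p = 0.00181 by limma). Jun, their partner, was at 91.9 and 68.9 FPKM and was not called.

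Genes of the TGF-beta and BMP pathways were called in both directions. Of 20 listed genes 19 were tested, 10 were called lower and 5 higher, with a median of -0.94. The median ran from -1.04 to -0.42 over the alternatives. Meningeal fibroblast markers fell in the same samples, and their part in these falls was not tested. Ltbp2, a latent TGF-beta binding protein of the matrix, fell from 35.5 to 1.01 FPKM, Inhba, a chain of activin, from 12.7 to 0.314 FPKM, the ligand Bmp4 from 14.7 to 0.745 FPKM and the BMP antagonist Grem1 from 8.46 to 0.172 FPKM. Tgfb1, by contrast, rose from 4.61 to 14.7 FPKM, the type I receptor Tgfbr1 from 5.80 to 15.7 FPKM and the BMP receptors Bmpr1b and Bmpr1a from 2.84 to 6.69 FPKM and from 28.4 to 46.7 FPKM. Tgfb1 is also made by microglia, whose genes rose in the same samples, and the part of that in this value was not tested. Bmpr1a lost its call without any of the AST replicates and Bmpr1b without AST replicate 2. The number of higher members was 3 without AST replicate 1 or 3 and 2 without AST replicate 2. Outside the lists, the secreted signal Shh fell from 55.4 to 0.920 FPKM (log2 fold change -4.89).

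Genes of DNA replication and mitosis were lower in A-iSCs. Ccnd1, or cyclin D1, which drives the entry into the cycle in response to growth factors and attachment (ENSMUSG00000070348, chr7:144929931-144939925, minus strand of GRCm38), was measured at 488, 321 and 474 FPKM in the ASTs and 10.5, 11.6 and 14.7 FPKM in the A-iSCs. Its level fell 34.9-fold with no overlap (log2 fold change -5.00, standard error 0.20, adjusted p = 5.14e-06 by limma). Ccnd2 was measured at 201, 172 and 199 FPKM in the ASTs and 16.9, 15.8 and 26.4 FPKM in the A-iSCs (log2 fold change -3.24, standard error 0.20, adjusted p = 1.93e-05 by limma), and Ccne1, the cyclin of the start of DNA synthesis, fell from 9.42 to 1.24 FPKM. Of 30 DNA replication genes all 30 were tested, 29 were called lower and 0 higher, with a median of -1.04. The largest fall among them was that of Rrm2, the regulated subunit of ribonucleotide reductase. Rrm2 was measured at 128, 125 and 125 FPKM in the ASTs and 6.93, 7.33 and 7.73 FPKM in the A-iSCs (log2 fold change -3.93, standard error 0.10, adjusted p = 3.09e-06 by limma). The thymidine kinase Tk1 fell from 7.73 to 1.31 FPKM, Gins2, of the replicative helicase, from 8.93 to 2.04 FPKM, and its partner Mcm5 from 13.8 to 3.57 FPKM. Pcna, the sliding clamp, which also serves repair, kept a high level and fell from 87.4 to 55.4 FPKM (log2 fold change -0.64). Of 24 mitotic genes 23 were tested, 23 were called lower, and the median was -2.27. Cdc20, which activates the anaphase-promoting complex, was measured at 49.6, 56.3 and 49.0 FPKM in the ASTs and 5.10, 6.60 and 6.13 FPKM in the A-iSCs (log2 fold change -2.93, standard error 0.13, adjusted p = 5.9e-06 by limma). The kinase Plk1 fell from 33.7 to 3.59 FPKM, the cyclin Ccnb2 from 30.3 to 3.34 FPKM, the cytokinesis protein Anln from 13.4 to 0.863 FPKM and the ubiquitin-conjugating enzyme Ube2c from 44.3 to 5.63 FPKM. The groups did not overlap at any of the 23 mitotic genes.

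The promoters of replication genes held the letters TTTNNCGC, bound by E2F factors, on either strand in 13 of 28 promoters of 24 genes, against 1 of 22 promoters of the mitotic genes and 5.17% of all promoters. The promoters of Mcm5 (chr8:75109316-75109407, plus strand) and Orc1 (chr4:108579387-108579453, plus strand), subunits of the helicase and of the origin recognition complex, are shown with these letters in capitals, where matches on both strands can overlap.
Mcm5: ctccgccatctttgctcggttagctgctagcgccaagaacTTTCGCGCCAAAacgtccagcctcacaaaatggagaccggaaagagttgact
Orc1: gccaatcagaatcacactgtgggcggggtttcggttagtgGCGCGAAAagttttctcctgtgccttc
The letters began 153 bases before the start of Mcm5 and 27 before that of Orc1. Mcm5 fell by 1.68 on the log2 scale, and Orc1, named for its promoter after its values were seen, by 0.8.

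Genes that hold back the cycle were called in both directions. In a list of 20 tested genes that held G1 cyclins, E2F factors and inhibitors together, 14 were called lower and 4 higher. Cdkn2a, the locus of p16 and p19Arf, fell from 48.9 to 8.09 FPKM, and Cdkn1a, or p21, an abundant inhibitor and target of p53, was measured at 238, 217 and 232 FPKM in the ASTs and 75.2, 75.7 and 57.9 FPKM in the A-iSCs (log2 fold change -1.71, standard error 0.15, adjusted p = 8.69e-05 by limma). The genes that rose were Rbl2, the pocket protein p130 of resting cells, from 2.73 to 7.83 FPKM, Btg1, which holds back division, from 17.0 to 29.8 FPKM, Cdkn1c, or p57, from 0.872 to 1.92 FPKM, and Rb1, from 11.0 to 15.7 FPKM. The 4 calls were reduced to 1 without AST replicate 1, and that of Cdkn1c was also lost in 4 of the other 5 fits that left out a sample. Of 19 p53 targets 13 were called lower and 2 higher, with a median of -0.98. Gdf15, a secreted stress signal, was measured at 86.6, 116 and 78.3 FPKM in the ASTs and 4.53, 4.45 and 1.29 FPKM in the A-iSCs (log2 fold change -4.51, standard error 0.35, adjusted p = 4.89e-05 by limma). Perp, a membrane protein of desmosomes, fell from 36.6 to 2.45 FPKM, the death receptor Tnfrsf10b from 17.5 to 2.58 FPKM and Ccng1, an abundant cyclin-like target, from 275 to 78.6 FPKM. Sesn1 and Gadd45a rose, by 1.13 and 1.03 on the log2 scale.

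**Figure D3:**
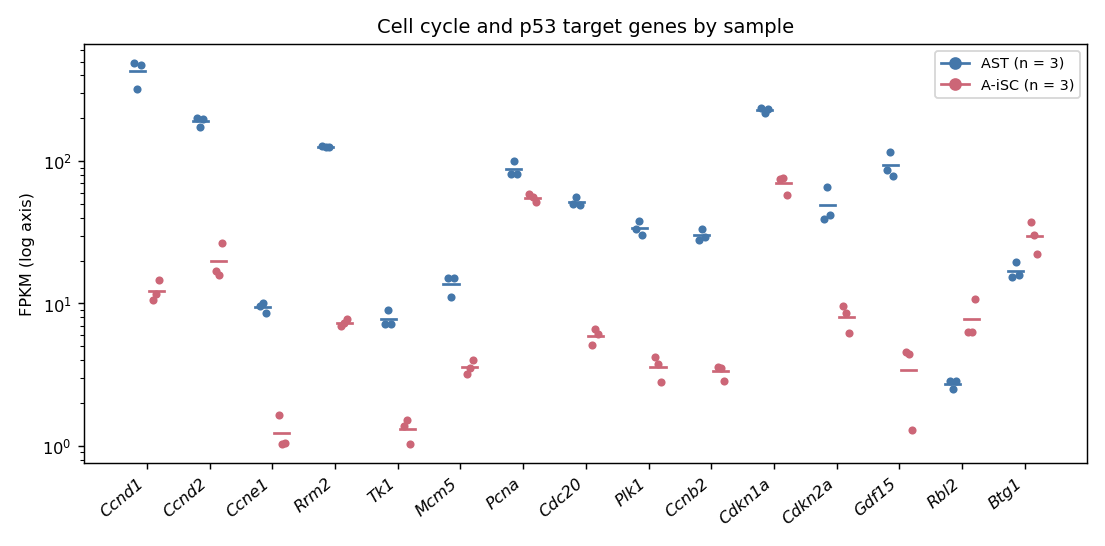
FPKM on a log axis of 15 genes of the cell cycle and of p53, 1 point per sample and a bar at the mean of the 3 samples of a group. The 3 A-iSC samples lie below the 3 AST samples at 13 genes and above them at Rbl2 and Btg1.

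Genes of mature astrocytes were higher in A-iSCs. Of 35 listed genes 33 were tested, 27 were called higher and 2 lower, with a median of 1.96, and the summed level of the list without Apoe rose from 2382 to 2914 FPKM in the ASTs to 6656 to 9527 FPKM in the A-iSCs. That sum still holds Cst3, which microglia make as well, and the part of microglia in the sum was not tested. Gfap (ENSMUSG00000020932, chr11:102887336-102900912, minus strand of GRCm38) was measured at 31.1, 27.2 and 31.3 FPKM in the ASTs and 658, 769 and 1483 FPKM in the A-iSCs. The A-iSC samples differed among themselves, with replicate 3 highest, yet all were above every AST sample (log2 fold change 4.88, standard error 0.30, adjusted p = 1.72e-05 by limma). Aldoc, the brain form of aldolase, was measured at 12.8, 14.2 and 12.1 FPKM in the ASTs and 299, 439 and 480.5 FPKM in the A-iSCs (log2 fold change 4.83, standard error 0.19, adjusted p = 5.07e-06 by limma). Ntsr2, a neurotensin receptor of astrocytes, was measured at 0.0956, 0.0790 and 0.0863 FPKM in the ASTs and 38.7, 51.1 and 27.5 FPKM in the A-iSCs (log2 fold change 5.16, standard error 0.21, adjusted p = 5.07e-06 by limma), and the AST values rest on 5 fragments each. The glutamate transporters were unequal in level: Slc1a3 (GLAST) was measured at 24.9, 19.6 and 25.3 FPKM in the ASTs and 74.8, 93.2 and 205 FPKM in the A-iSCs, and Slc1a2 (GLT-1), which matures later in the brain, at 1.82, 1.57 and 1.76 FPKM in the ASTs and 14.7, 17.8 and 36.6 FPKM in the A-iSCs. Their log2 fold changes were 2.24 and 3.04. Glul, the glutamine synthetase, rose from 41.5 to 216 FPKM, and Aqp4, the water channel of astrocyte endfeet, from 30.8 to 92.4 FPKM (log2 fold changes 2.32 and 1.48). Slc1a3, Slc1a2, Glul and Aqp4 were chosen for their roles after their values were seen.

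The astrocyte genes that did not rise were few. The protease Htra1 fell from 49.4 to 15.7 FPKM and Acsbg1, an acyl-CoA synthetase, from 44.4 to 34.1 FPKM. The log2 fold change of Acsbg1 was -0.38, and its call was lost in 4 of the 6 fits that left out a sample. Slc39a12, a zinc transporter, Slc4a4, a bicarbonate transporter, Mt3, a metallothionein, and Gja1, the gap junction protein connexin 43, were not called. Without A-iSC replicate 3 Slc39a12 and Slc4a4 were called lower, and the lower calls of the list numbered 4. Gja1 was measured at 25.5, 22.6 and 26.4 FPKM in the ASTs and 17.7, 25.6 and 41.6 FPKM in the A-iSCs, so its groups overlapped. Ripply1, a transcriptional co-repressor, had the highest log2 fold change among protein-coding genes of at least 10 FPKM and was measured at 0.221, 0.243 and 0.0664 FPKM in the ASTs and 47.8, 71.8 and 84.4 FPKM in the A-iSCs (log2 fold change 5.84, standard error 0.21, adjusted p = 3.65e-06 by limma). Agt, the angiotensinogen that brain astrocytes secrete, rose from 0.158 to 38.8 FPKM. Nnat, an imprinted neural membrane protein, rose from 14.5 to 270.3 FPKM, and Pvalb, a calcium buffer best known from interneurons, from 0.324 to 26.5 FPKM.

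**Figure D4:**
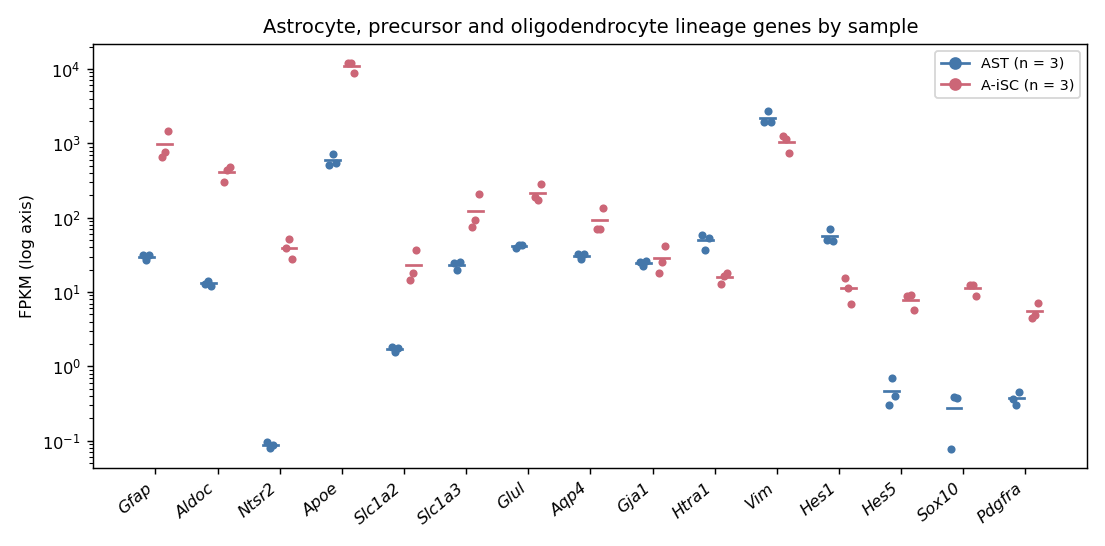
FPKM on a log axis of 15 astrocyte, precursor and oligodendrocyte lineage genes, 1 point per sample and a bar at the mean of the 3 samples of a group. The A-iSC samples lie above the AST samples at most genes, overlap them at Gja1, and lie below them at Htra1, Vim and Hes1.

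Genes that mark reactive astrocytes were mixed. Of 13 general reactive genes 9 were called higher and 4 lower. Next to Gfap, Serpina3n, a secreted protease inhibitor, was measured at 8.09, 8.65 and 9.60 FPKM in the ASTs and 179, 283 and 393 FPKM in the A-iSCs (log2 fold change 4.80, standard error 0.27, adjusted p = 1.25e-05 by limma). The sphingosine phosphate receptor S1pr3 rose from 9.46 to 70.2 FPKM and the iron-carrier binding Lcn2 from 0.280 to 9.65 FPKM. Timp1, Cd44, Vim and the heat shock protein Hspb1 were the 4 that fell, although Hspb1 lost its call without AST replicate 1 or 2, without A-iSC replicate 2 and with scaling by library size alone. With no filter on low values 2 of the 4 were called lower. Timp1 fell from 351 to 41.7 FPKM and Cd44, the hyaluronan receptor, from 105 to 31.3 FPKM. Of 12 genes listed for astrocytes after inflammation (A1) 11 were tested, 8 called higher and 2 lower, with a median of 1.94, and 1 was called lower without AST replicate 1 or A-iSC replicate 2. Of 12 genes listed for astrocytes after ischaemia (A2) 10 were tested, 1 called higher and 6 lower, with a median of -0.79. The difference between the A1 and A2 lists was not tested. Neither was the part in the A1 list of microglia, whose genes rose in the same samples. In the A1 list, H2-T23 and H2-D1, class I antigens, and Psmb8, of the immunoproteasome, are also induced by interferon, and in the A2 list Emp1, from 141 to 22.8 FPKM, and S100a10, from 581 to 112 FPKM, had the largest falls. Cd14, the endotoxin co-receptor that rose in the A2 list, from 15.5 to 34.7 FPKM, is also a gene of microglia.

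The highest median of any list in the main fit was that of microglia. Among the alternatives the median of the oligodendrocyte precursor list reached up to 3.89, above the highest of the microglia list, 3.35. All 16 listed genes were tested and called higher, with a median log2 fold change of 3.14 and log2 fold changes from 0.98 to 3.75. Their summed level was 299 to 403 FPKM in the ASTs and 3028 to 4730.2 FPKM in the A-iSCs, or 11.3-fold higher. C1qa, which begins the classical complement cascade, was measured at 76.3, 103 and 81.8 FPKM in the ASTs and 1248, 948 and 891 FPKM in the A-iSCs (log2 fold change 3.54, standard error 0.20, adjusted p = 1.22e-05 by limma). Csf1r, the receptor on which microglia depend, was measured at 7.15, 7.21 and 8.47 FPKM in the ASTs and 104, 83.9 and 74.3 FPKM in the A-iSCs (log2 fold change 3.35, standard error 0.15, adjusted p = 6.56e-06 by limma). P2ry12, a receptor of resting microglia, rose from 0.670 to 7.30 FPKM, and the chemokine receptor Cx3cr1 from 7.17 to 61.1 FPKM. None of the 16 genes was at 0 in any group of 3 samples, so the ASTs held such transcripts too. In these bulk samples a larger share of a cell type and more RNA per cell of it cannot be told apart. Csf1, a ligand of Csf1r, moved the other way and was measured at 277, 275 and 273 FPKM in the ASTs and 23.3, 21.2 and 17.3 FPKM in the A-iSCs (log2 fold change -3.68, standard error 0.14, adjusted p = 4.36e-06 by limma). The apolipoprotein Apoc1 and the macrophage membrane protein Ms4a4a, from 0.521 to 51.2 FPKM and from 0.566 to 27.5 FPKM, also stood among the 15 largest rises.

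**Figure D5:**
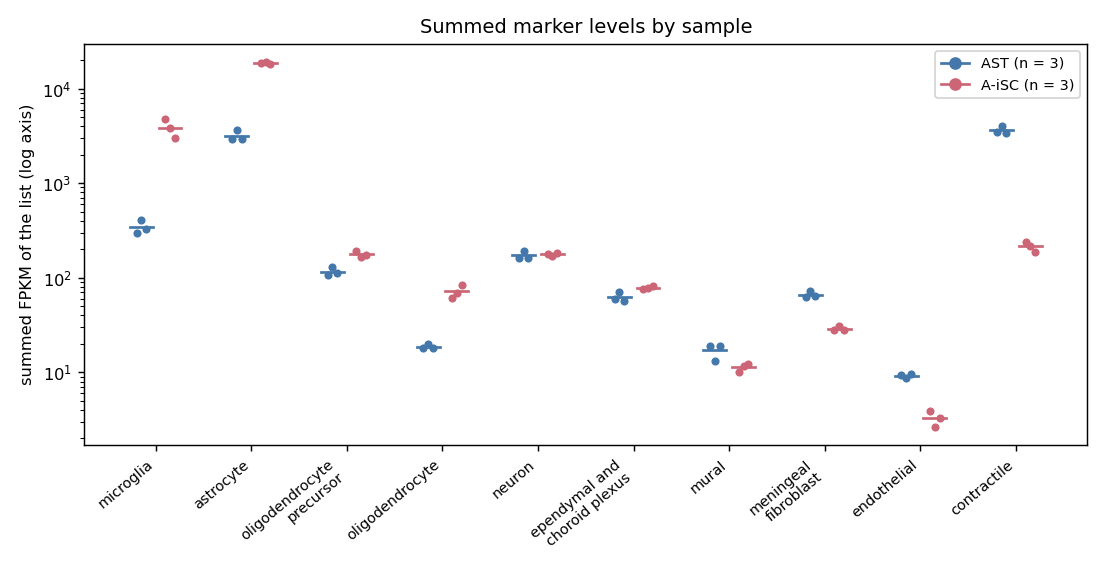
Summed FPKM on a log axis of 9 marker lists of cell types and of the contractile list, 1 point per sample and a bar at the mean of the 3 samples of a group. The microglia sum rose from 299 to 403 FPKM in the ASTs to 3028 to 4730 FPKM in the A-iSCs, and the contractile sum shows the largest fall.

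Most interferon-stimulated genes and most genes of MHC class I presentation were called higher beside the microglia genes, and the part of that cell type in them was not tested. Of 25 interferon-stimulated genes all 25 were tested, 17 were called higher and 0 lower, with a median of 1.04. Irf7, a transcription factor of the interferon response, was measured at 5.92, 8.41 and 6.72 FPKM in the ASTs and 79.7, 65.0 and 40.3 FPKM in the A-iSCs (log2 fold change 2.92, standard error 0.25, adjusted p = 8.06e-05 by limma). The antiviral Oas2, Mx1 and Oasl2 rose from 0.227 to 7.52 FPKM, from 0.175 to 5.68 FPKM and from 5.15 to 29.8 FPKM, though the Oas genes have close relatives whose fragments may have been shared. The most abundant members were not among the calls: Bst2, or tetherin, was at 431 and 389.9 FPKM and the ubiquitin-like Isg15 at 166 and 174 FPKM. The letters GAAANNGAAA, of the interferon response element, were present on either strand in 12 of 21 promoters of 18 of these genes and in 3.44% of all promoters. Ifit1 (chr19:34640745-34640853, plus strand) and Oas1a (chr5:120907526-120907585, minus strand) are shown with these letters in capitals, read on the other strand in Ifit1. Both were chosen for their promoters after their values were seen.
Ifit1: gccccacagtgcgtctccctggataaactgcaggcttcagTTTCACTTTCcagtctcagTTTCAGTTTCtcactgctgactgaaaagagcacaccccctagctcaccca
Oas1a: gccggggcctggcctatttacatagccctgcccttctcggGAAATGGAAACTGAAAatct
Ifit1 was measured at 23.9, 23.9 and 23.3 FPKM in the ASTs and 75.7, 60.8 and 56.6 FPKM in the A-iSCs (log2 fold change 1.39, standard error 0.14, adjusted p = 0.000148 by limma). Oas1a was measured at 4.49, 4.84 and 3.86 FPKM in the ASTs and 31.6, 21.4 and 20.2 FPKM in the A-iSCs (log2 fold change 2.21, standard error 0.18, adjusted p = 6.34e-05 by limma).

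Of 14 genes of antigen presentation by MHC class I 11 were called higher and 0 lower, with a median of 1.35. The class I chain H2-D1 was measured at 65.8, 73.4 and 65.2 FPKM in the ASTs and 564, 476 and 428 FPKM in the A-iSCs (log2 fold change 2.82, standard error 0.15, adjusted p = 1.12e-05 by limma), H2-K1 rose from 37.6 to 218 FPKM and H2-T23 from 6.26 to 65.3 FPKM. Class I genes are near copies of each other, so how fragments were divided among them is uncertain. The part of the microglia, whose genes rose in the same samples, was also not tested for the complement, chemokine and lysosomal genes that follow. Of 12 complement genes 8 were tested, 4 were called higher and 3 lower. C4b, a component of the classical pathway, was measured at 0.398, 0.303 and 0.321 FPKM in the ASTs and 38.5, 56.8 and 40.4 FPKM in the A-iSCs (log2 fold change 5.09, standard error 0.16, adjusted p = 3.54e-06 by limma), and its close copy C4a makes the division of fragments uncertain. C3, the central component, rose from 0.580 to 17.9 FPKM. The regulators Cd55 and Cd59a fell, from 1.71 to 0.362 FPKM and from 10.6 to 5.32 FPKM. Where a mean of at least 1 FPKM was asked of both groups, 1 complement gene was called higher. Of 16 chemokines and cytokines 14 were tested, 4 were called higher and 7 lower. Ccl5 rose from 5.83 to 87.2 FPKM and Cxcl16 from 3.32 to 21.5 FPKM. Cxcl12, a chemokine of stromal cells, fell from 13.0 to 0.555 FPKM and Lif, a cytokine that acts on astrocytes, from 16.3 to 1.09 FPKM. Of 23 lysosomal genes 13 were called higher and 3 lower, with a median of 0.73. The membrane glycoprotein Gpnmb rose from 16.5 to 155 FPKM and the protease Ctsb from 169.6 to 910.0 FPKM. The 3 lower calls were reduced to 1 with scaling by library size alone and without any AST replicate or A-iSC replicate 2.

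Markers of other cell types were called in both directions. Among the 8 genes of oligodendrocyte precursors, all tested, 6 were called higher and 1 lower, but 1 was called higher where both groups had to reach 1 FPKM and 0 were called lower without AST replicate 1 or 3. Sox10, the transcription factor of the lineage, was measured at 0.0782, 0.388 and 0.371 FPKM in the ASTs and 12.3, 12.4 and 8.83 FPKM in the A-iSCs (log2 fold change 3.25, standard error 0.17, adjusted p = 1.01e-05 by limma). Pdgfra, the receptor of precursors, rose from 0.373 to 5.50 FPKM and Bcas1, of cells that begin to make myelin, from 0.0705 to 6.33 FPKM. Of 8 oligodendrocyte genes 5 were tested and called higher, all but 1 of them from below 1 FPKM. Cnp, an enzyme of myelin, rose from 17.5 to 54.7 FPKM and the myelin protein Mbp from 0.295 to 4.23 FPKM. Of 19 neuron genes 12 were tested, 7 were called higher and 1 lower, and 3 were called higher where both groups had to reach 1 FPKM. Dcx, of migrating young neurons, rose from 0.0833 to 2.86 FPKM and the interneuron factor Dlx1 from 1.06 to 5.83 FPKM, while Stmn2, which regulates microtubules in axons, fell from 53.8 to 7.16 FPKM. Tubb3, the neuronal tubulin, was at 40.7 and 37.8 FPKM and was not called. Of the genes of meningeal fibroblasts, 7 of 8 tested were called lower, as given above, and 3 were called lower where both groups had to reach 1 FPKM. Twist1, a factor of mesenchymal cells, fell from 24.9 to 1.70 FPKM, and the small proteoglycan Ogn from 25.0 to 4.75 FPKM, while Ptgds, a prostaglandin synthase that oligodendrocytes make as well, rose from 1.93 to 17.8 FPKM (log2 fold change 2.69). Of 10 endothelial genes 5 were tested, 3 were called lower and 2 were not called, and 1 was called higher with no filter on low values. Cdh5 and Esam fell from 2.28 to 0.156 FPKM and from 2.21 to 0.116 FPKM, and Cldn5 was listed at 0 in all ASTs. The 3 called lower, Cdh5, Esam and Kdr, were under 1 FPKM on average in the A-iSCs. They thus entered the test through the ASTs only, which fixed their direction. Of 7 mural cell genes 3 were tested, 1 was called higher and 1 lower. The number called higher was 0 where both groups had to reach 1 FPKM and 3 with no filter on low values. Pdgfrb, a receptor of mural cells and fibroblasts, fell from 11.1 to 2.79 FPKM, and the aminopeptidase Anpep rose by 1.33 on the log2 scale. Of 10 ependymal and choroid plexus genes 8 were tested, 3 were called higher and 2 lower. Those that rose were Ccdc153, Cfap126 and Tmem212, of ciliated cells, at log2 fold changes of 1.80, 1.91 and 1.54, and those that fell were Ttr, the transthyretin of choroid plexus, and the water channel Aqp1, at -0.93 and -0.81. Where both groups had to reach 1 FPKM 1 of these genes was called higher and 0 lower, with scaling by library size alone 5 were called higher, and with all 4 groups in the fit 0 were called lower. Foxj1, the factor of motile cilia, was at 43.3 and 44.3 FPKM and was not called.

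Genes used to define neural stem cells were called in both directions. Of 20 tested genes 8 were called higher and 5 lower, which is 13 of 20 against 54.8% of all genes, with a median of 0.26. The number called higher was 5 without AST replicate 1 or without A-iSC replicate 2. Hes5, a target of Notch in precursors, was measured at 0.306, 0.687 and 0.395 FPKM in the ASTs and 8.85, 9.16 and 5.64 FPKM in the A-iSCs (log2 fold change 2.59, standard error 0.19, adjusted p = 4.2e-05 by limma), and Sox9, of astrocytes and stem cells alike, rose from 17.5 to 44.4 FPKM. Hes1, another target of Notch that serum also induces, was measured at 49.4, 70.2 and 48.3 FPKM in the ASTs and 15.5, 11.3 and 6.96 FPKM in the A-iSCs (log2 fold change -2.26, standard error 0.28, adjusted p = 0.000446 by limma). Hes5 and Hes1 thus moved in opposite directions. Vcam1, an adhesion molecule of stem cells and of stimulated astrocytes, fell from 29.5 to 9.36 FPKM. In the Notch list 16 of 20 genes were tested, 6 were called higher and 3 lower, or 3 higher where both groups had to reach 1 FPKM. The share of Notch genes called was near the 54.8% of all genes. The ligand Dll1 rose from 1.07 to 4.66 FPKM. Of 15 pluripotency genes 5 were tested, 3 were called lower and 0 higher, while 5 were called lower with no filter on low values and 1 was called higher with scaling by library size alone. Klf4 was measured at 30.7, 26.0 and 29.9 FPKM in the ASTs and 6.30, 6.08 and 3.85 FPKM in the A-iSCs (log2 fold change -2.24, standard error 0.18, adjusted p = 5.32e-05 by limma), and Klf2 fell from 38.7 to 9.94 FPKM. Both are also induced by fluid shear in endothelial cells. Pou5f1, which encodes Oct4, was at 0 fragments in all 6 samples, and Nanog had 6 to 13 fragments in an AST sample and 4 to 9 in an A-iSC sample, so neither was tested. Alpl, the tissue-nonspecific alkaline phosphatase, was at 1.89 and 0.821 FPKM and was called lower (log2 fold change -0.67). The study reported higher Oct4 and Nanog in spheres by RT-PCR and Western blotting, and alkaline phosphatase staining that increased with time. Those are other methods than the RNA-seq values given here.

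Metabolic genes changed in part. Of 24 genes of sterol synthesis and uptake 22 were tested, 16 were called lower and 0 higher, with a median of -0.71, and 10 were called lower with scaling by library size alone. Hsd17b7 fell from 19.4 to 5.49 FPKM and Insig1, the sterol sensor partner, from 51.4 to 19.6 FPKM, while Hmgcs1, the most abundant enzyme of the list, was at 62.9 and 58.7 FPKM and was not called. Of 19 glycolytic enzymes and lactate carriers 6 were called higher and 7 lower, with a median of -0.06, which is that of all genes. Aldoc, already described, and the lactate exporter Slc16a3, from 0.609 to 7.30 FPKM, rose, and Pgam1 and Pgk1 fell, from 227 to 112 FPKM and from 404 to 226 FPKM. Pgk1 lost its call without AST replicate 1 or 3, without A-iSC replicate 1 or 2 and with scaling by library size alone. The lower calls were reduced to 4 without AST replicate 1 and to 3 with scaling by library size alone. Gapdh was at 41.3, 2.73 and 54.5 FPKM in the ASTs and 53.9, 70.8 and 1.99 FPKM in the A-iSCs. AST replicate 2 and A-iSC replicate 3 thus stood apart at a gene with many processed copies in the genome, and Gapdh was not called.

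Of 20 tested hypoxia targets 9 were called higher and 6 lower, with a median of 0.17. Those that rose included the mitochondrial autophagy receptor Bnip3, measured at 7.95, 8.12 and 7.68 FPKM in the ASTs and 26.1, 32.8 and 40.1 FPKM in the A-iSCs (log2 fold change 1.91, standard error 0.16, adjusted p = 7.15e-05 by limma), the oxygen sensor Egln3, from 7.47 to 26.2 FPKM, and Vegfa, the growth factor of vessels, from 15.7 to 52.6 FPKM. Those that fell included the peptide hormone Adm, measured at 25.9, 35.4 and 26.5 FPKM in the ASTs and 4.66, 6.47 and 4.93 FPKM in the A-iSCs (log2 fold change -2.25, standard error 0.17, adjusted p = 4.06e-05 by limma), and P4ha1, a prolyl hydroxylase of collagen, from 86.9 to 29.1 FPKM. The letters ACGTG, the core of the hypoxia response element, were present on either strand in 16 of 26 promoters of 20 of these genes and in 19.6% of all promoters, those of Bnip3, Egln3, Vegfa and P4ha1 included. Of 12 genes of fatty acid oxidation and PPAR signalling 5 were called higher and 1 lower, or 3 higher where both groups had to reach 1 FPKM. The lower call was lost without AST replicate 1 or 3 and without A-iSC replicate 1 or 2, while 4 were called lower without A-iSC replicate 3. Pdk4, which spares glucose, rose from 3.27 to 15.9 FPKM. Of 18 genes of amino acid and unfolded protein stress 4 were called higher and 7 lower. The cystine carrier Slc7a11 rose from 0.987 to 6.10 FPKM and the stress factor Atf3 from 9.03 to 30.0 FPKM, while the asparagine synthetase Asns fell from 21.4 to 6.79 FPKM and Mthfd2, of mitochondrial folate metabolism, from 12.6 to 3.90 FPKM. The 4 higher calls were reduced to 2 without AST replicate 1, AST replicate 3 or A-iSC replicate 2, and the 7 lower calls to 4 with scaling by library size alone.

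The study examined PI3K-Akt and Rap1 signalling, and the genes of these pathways and of VEGF were called in both directions. By RT-PCR the study reported that VEGF, PI3K, PCNA, the receptor Kdr and Hes1 rose in spheres over time, and it described this as matching its RNA-seq. In the deposited FPKM Vegfa was called higher, while Kdr, Pcna and Hes1 were called lower. Of 19 tested PI3K and Akt genes 2 were called higher and 5 lower, or 7 of 19 against 54.8% of all genes, with a median of 0.00. The catalytic subunit Pik3cb fell 3.73-fold (log2 fold change -1.70, standard error 0.14, adjusted p = 5.97e-05 by limma), and the regulatory subunit Pik3r3 fell from 11.8 to 4.09 FPKM. Pik3cd, the catalytic subunit of white blood cells, rose from 0.460 to 4.75 FPKM, beside the microglia genes, and the part of those cells in it was not tested. The 5 lower calls were reduced to 2 with scaling by library size alone and without AST replicate 1 or 3 or A-iSC replicate 1, and to 3 without A-iSC replicate 2. The 2 higher calls were reduced to 1 without any of the AST replicates and without A-iSC replicate 2, and numbered 4 with scaling by library size alone. Of 15 tested Rap1 genes, which act between integrins and the cytoskeleton, 4 were called higher and 5 lower, with a median of 0.05, and 3 were called lower with scaling by library size alone. The share of Rap1 genes called in either direction was near the 54.8% of all genes. Sipa1l1, a GTPase-activating protein of Rap1, fell from 16.0 to 5.64 FPKM, Rap1gap2 from 4.80 to 1.70 FPKM, and Apbb1ip, a Rap1 effector of white blood cells, rose from 1.60 to 4.13 FPKM. Of the VEGF ligands and receptors 9 were tested, 1 was called higher and 4 lower, and 2 were called higher without A-iSC replicate 3. The share of VEGF genes called was also near that of all genes. Vegfa was measured at 17.2, 14.7 and 15.2 FPKM in the ASTs and 42.9, 73.7 and 41.2 FPKM in the A-iSCs (log2 fold change 1.63, standard error 0.23, adjusted p = 0.000787 by limma). The receptors Kdr and Flt4 fell from 2.46 to 0.511 FPKM and from 1.59 to 0.0874 FPKM, and where both groups had to reach 1 FPKM 1 gene was called lower. The endothelial genes Cdh5 and Esam fell in the same samples, as given above, and the part of endothelial cells in the receptor falls was not tested.

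The counts in each direction were also taken by class of RNA, and the differences between classes were not tested. Of 12120 protein-coding genes tested 3119 were called higher and 3754 lower, with a median log2 fold change of -0.07. Of 625 long noncoding RNA genes 249 were called higher and 122 lower, with a median of 0.38. Their median levels of 1.23 FPKM in the ASTs and 1.63 FPKM in the A-iSCs lay near the minimum of 1 FPKM, which more genes reached in the A-iSCs only than in the ASTs only, and the part of this in their direction was not tested. Of 743 processed pseudogenes 29 were called higher and 208 lower, with a median of -0.32. Processed pseudogenes resemble the messenger RNAs of their parent genes, so their fragments may belong to those.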

How the data were processed

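Total RNA was taken up in Trizol, and 3 µg per sample went into NEBNext Ultra libraries for Illumina read pairs. The authors deposited FPKM, per gene and sample, with gene lengths, after removing reads with adapters, unknown bases or low quality and scaling between samples. The submitters' processing notes name Bowtie 0.12.2 and mm8. However, 54985 of 55240 identifiers shared with GENCODE M21 had its chromosome, start and end, so positions are given on GRCm38. The counting program, its strand setting and the annotation release are not given in the sources used here. A short read aligner, gene lengths and near-identical copies can all shift a value. Multiplying the deposited FPKM by gene length and dividing by the value of 1 fragment in that sample gave whole fragments (100% of values within 0.02), which served for the depth and for limma-voom, which called 3484 genes higher and 4160 lower.

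limma 3.58.1 in R 4.3.3 (lmFit, eBayes with trend) was fitted on log2(FPKM + 1) to all 14087 genes with a mean of at least 1 FPKM in either group, with Benjamini-Hochberg adjustment over all of them. The pseudocount of 1 understates the change of low genes. The study's DESeq2 was not run, and limma-voom was used on the recovered fragments instead. On simulated data with 12701 genes tested in all, the fit called 96 of 100 genes changed 2-fold, 100 of 100 changed 4-fold and 19 unchanged genes. The simulation changed few genes, none of them low in the ASTs, and gave every gene and sample the same spread beyond counting error. It therefore checks the code and does not give the error rates of the fit on the real samples. Replicate numbers were not used, as the deviations of same-numbered samples correlated at -0.409, 0.351 and 0.452 and those of other pairs at up to 0.535. The gene lists, members and naming rule were chosen with earlier results of these data known. Lists are described by counts and medians, without a test. The rule named up to 4 called members at each end of a list, its 2 most abundant members and any member of a list with at most 14 tested, and genes outside the lists among the 15 largest fold changes at 10 FPKM or more and the 10 largest changes of FPKM in each direction. Named beside it, after their values were seen, were Slc1a3, Slc1a2, Glul, Aqp4, Ankrd1, Orc1, Ifit1, Oas1a, Cx3cr1, Gapdh, Gja1, Itgb5, Mt3, Slc39a12 and Slc4a4. Promoters were those of RefSeq on GRCm38.p6, matched by symbol. Alternatives were other pseudocounts, filters, scalings and thresholds, all 4 groups in the fit, the replicate block and each sample left out. Python 3.11.15 with pandas 2.3.3 and matplotlib 3.10.9 was used for tables and plots. No sample of the 2 groups was left out, and some genes that the rule names are not reported here.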

Additional observations from a re-analysis of the deposited data

How the results depend on the processing

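The counts of 3550 higher and 4165 lower genes stayed within 1.5 times of these values in all but 2 of the alternatives. With a mean of at least 1 FPKM in both groups 2243 genes were higher, since genes under 1 FPKM on average in the ASTs were not tested, and beyond a log2 fold change of 1 there were 1470 higher and 1547 lower. Leaving out each sample in turn gave 2799 to 4181 higher and 3281 to 4756 lower genes. With all 4 groups in the fit there were 4138 and 4900, with the upper quartile of FPKM as the scaling 3403 and 4349, and with trimmed means of M values 3651 and 4014. The replicate number as a block gave 3694 higher and 4250 lower genes, and 1 of the called genes named, Acsbg1, lost its call under this block. The block is only an alternative, since 1 of the 3 same-numbered pairs deviated in opposite directions.

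Of 201 named genes with a test 188 were called, and the 188 kept their sign in every alternative. In every fit without a sample 177 kept their call, and with no filter on low values 9 lost it. The sign turned at 8 of the 13 uncalled genes. Scaling by library size alone gave 0.05 for Bst2, 0.11 for Hmgcs1, 0.13 for Slc4a4 and 0.10 for Tubb3, and the upper quartile gave -0.01 for Foxj1, all as log2 fold changes. Without each sample in turn, the values ran from -0.35 to 0.04 for Bst2, from -0.10 to 0.09 for Foxj1, from -1.09 to 1.61 for Gapdh, from -0.21 to 0.38 for Gja1, from -0.13 to 0.32 for Isg15, from -0.49 to 0.16 for Slc4a4 and from -0.27 to 0.10 for Tubb3. With all 4 groups in the fit Jun and Tmsb4x were called lower. The cause of these changes was not tested. The depth limited what could be read of genes at a few fragments, such as Nanog and Ankrd1 in A-iSCs.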
